A study of Mus musculus with 10 samples.

Results

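The platelet-derived growth factors (PDGFs), the vascular endothelial growth factors (VEGFs), angiopoietin 1 and angiopoietin-like 4 are secreted proteins that act on the cells of blood vessels, on glial precursors and on lipid uptake. The 9 genes described here, Pdgfa, Pdgfb, Pdgfc, Pdgfd, Vegfa, Vegfb, Vegfc, Angpt1 and Angptl4, are 9 of 17919 genes measured. They were followed through every probe set with a value in all 10 cells that the array annotation gives to 1 gene, and this gave 19 probe sets of 33964. They were chosen with the difference between the ages in view, so that the differences given below are descriptions and support nothing by themselves.

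Each measurement came from 1 Bergmann glial cell, the radial astroglial cell of the cerebellar cortex, isolated from the mid-sagittal cerebellum of a GFAP-GFP reporter mouse. In this line the Gfap promoter drives GFP, so the cells were picked by a reporter that other astroglia also carry, and by their shape. The paper reports stronger GFP in Bergmann glia than in astrocytes, and a bushy unipolar form that astrocytes lacked. By PCR and Southern blot, the cDNAs used had all tested astroglial markers and no tested neuronal marker. There were 5 cells at postnatal day 6 (P6), when granule neurons migrate along the glial fibers, and 5 cells at P30, when the cerebellum is mature, and the labels give no treatment or other allele for either age. The cDNA of each cell was amplified by PCR and hybridized to 1 array. Because the labels name no animal, each age counts as 1 sample: no p-value was computed, and SDs and ranges describe cells.

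PDGFs bind as dimers to the receptors Pdgfra and Pdgfrb. PDGF-A drives the growth of oligodendrocyte precursors, PDGF-B recruits pericytes to vessels, and PDGF-C and PDGF-D are secreted in a latent form that a protease must cut. VEGF-A acts through Flt1 and Kdr on endothelial cells, VEGF-B binds Flt1, VEGF-C binds Flt4 and drives lymphatic growth, angiopoietin 1 activates Tek, and Angptl4, a target of the PPAR nuclear receptors and of low oxygen, inhibits lipoprotein lipase.

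All values are normalized ratios: the RMA signal divided by the median of its array and then by a median of the probe set, in most probe sets that of the P6 cells. A ratio can be compared between cells, but it does not show how strongly a gene was expressed, nor which of a pair of genes was higher. Differences are the mean log2 ratio at P6 less that at P30, and 3-fold was taken as the size that counts as higher. Ratios end at a floor of 0.01, so a fold against cells at the floor is a lower bound.

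Of the 19 probe sets, 4 were over 3-fold higher at P6, 3 were over 3-fold higher at P30 and 12 were neither. Over all 33964 probe sets, 12.3% were past 3-fold toward P6 and 6.91% toward P30. With 2-fold as the size, 4 were higher at P6 and 5 at P30, beside 21.6% and 14.7% of all probe sets. The 4 higher at P6 were both probe sets of Pdgfc, 1 of Angptl4 and 1 of Angpt1. The 3 higher at P30 were 1 of Pdgfa and 2 of Pdgfd. In 3 probe sets, both of Pdgfc and 1 of Angptl4, all 5 P6 cells lay above all 5 P30 cells (1.96% of all probe sets), and in none did all P30 cells lie above all P6 cells (1.21% of all probe sets). The median difference over the 19 was 0.39 on the log2 scale, beside 0.05 over all probe sets, and the median SD within ages was 1.14 beside 1.25. By the mean over the probe sets of a gene, Pdgfc and Angptl4 were past 3-fold toward P6 (9.39% of all 17919 genes) and Pdgfd toward P30 (4.93%). Pdgfc and Angptl4 were also the genes whose P6 cells all exceeded every P30 cell (2.13% of all genes), and none had all P30 cells above (1.41%). The ages differed in opposite directions within the PDGF genes, and no probe set of Vegfa, Vegfb or Vegfc passed 3-fold.

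**Figure D1:**
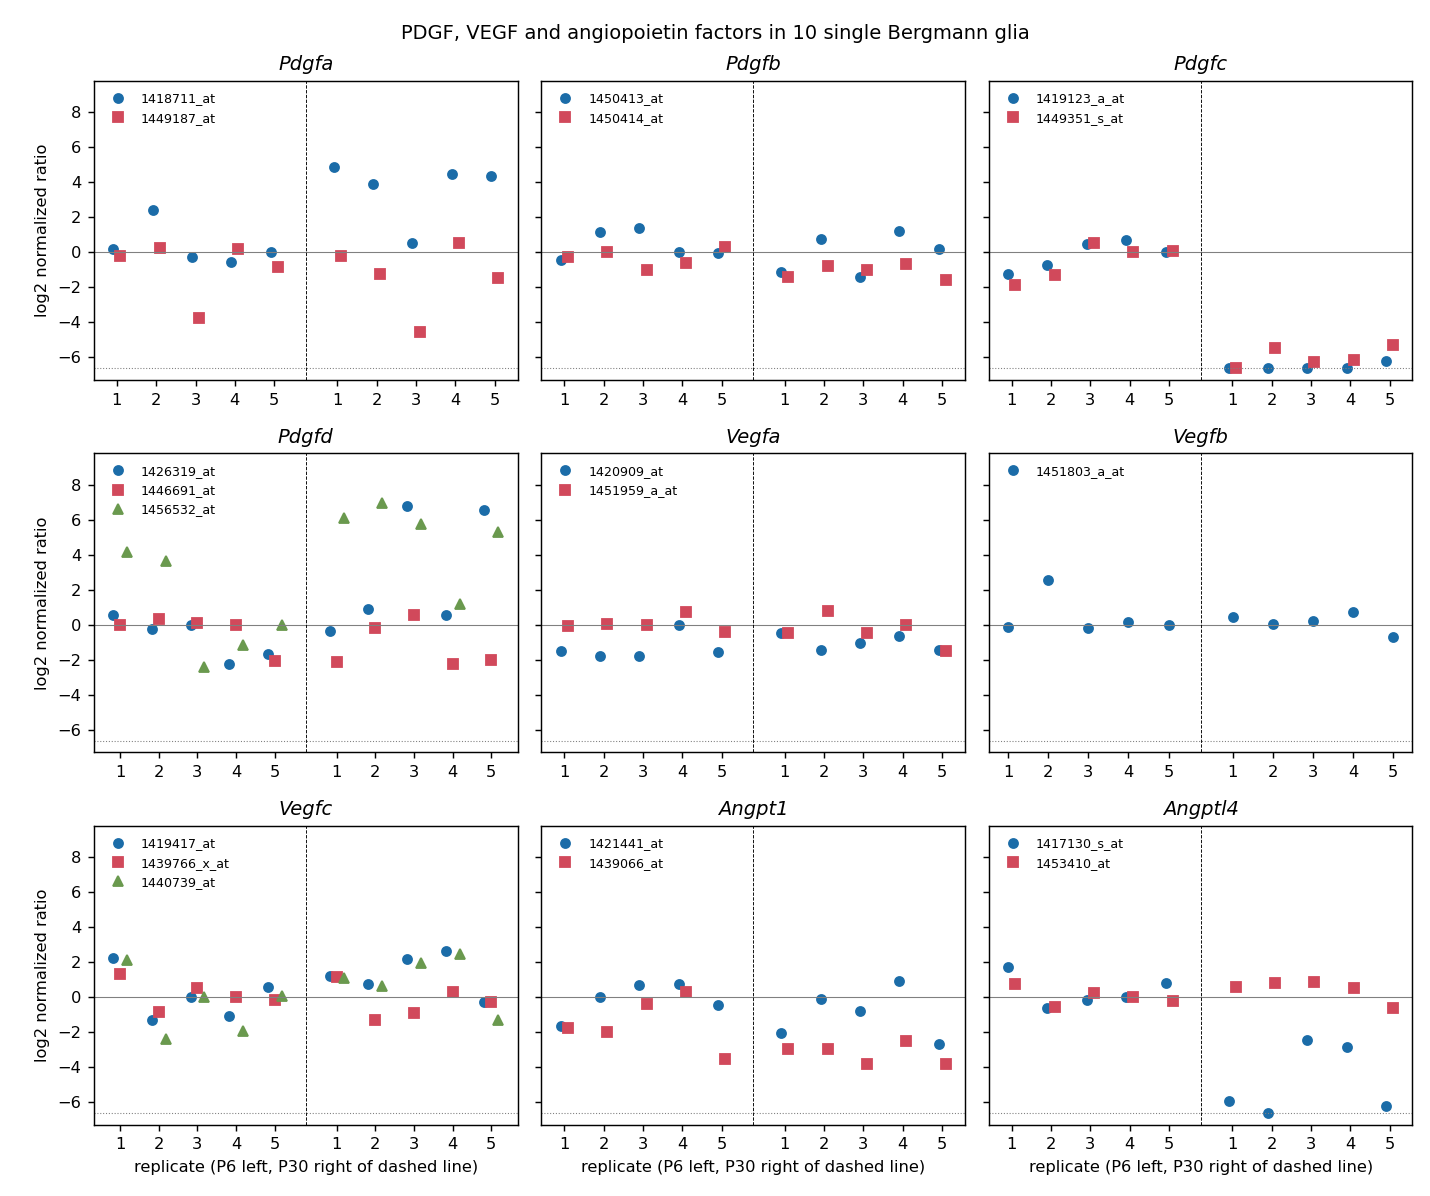
Normalized ratio (log2, vertical axis) of every probe set of the 9 genes in each of the 10 cells, with P6 replicates 1 to 5 left and P30 replicates 1 to 5 right of the dashed line in each panel, probe sets told apart by symbol and color, and the floor as a dotted line. Both Pdgfc probe sets and 1 of Angptl4 lie lower in all 5 P30 cells than in any P6 cell, 1 probe set of Pdgfa and 1 of Pdgfd are higher in 4 of 5 P30 cells than in any P6 cell, and another of Pdgfd is high in 2 P30 cells.

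The arrays differed in scale and in markers of other cells. The median ratio of an array ran from 0.91 to 1.00 at P6 and from 0.913 to 0.934 in P30 replicates 1 to 4, and it was 0.726 in P30 replicate 5. That cell also stood apart in markers of other cell types: 10 of 14 endothelial and 4 of 6 Purkinje neuron genes were over 3-fold above the other P30 cells, as were 4 of 10 oligodendrocyte, 4 of 12 pericyte and 3 of 10 granule neuron genes, beside 11.8% of all 17919 genes. Leaving the receptors described below out of the endothelial list, 6 of 10 genes were over 3-fold above in that cell and none in the other P30 cells, and the mean ratio was 13.3 there, 0.899 to 1.18 in the other P30 cells and 0.817 to 1.13 at P6. In P30 replicate 4, too, 4 of 10 oligodendrocyte genes were over 3-fold above the other P30 cells, beside 9.44% of all genes. The mean ratio of the oligodendrocyte list was 13.3 in P30 replicate 4 and 9.22 in P30 replicate 5. P6 replicate 5 stood apart in neuronal markers, with 9 of 13 over 3-fold above the other P6 cells, beside 11.9% of all genes. As to the labelled cell type, of 15 astroglial and Bergmann glial markers 1, Gja1 (connexin 43), was over 3-fold different between the ages (9.02-fold higher at P30), and 1 probe set of Gfap lay at the floor in 3 P6 cells. The ratios cannot show whether a marker was present, and no endothelial or pericyte probe set lay at the floor in any cell.

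Pdgfc, the latent ligand that signals mainly through Pdgfra, had the largest differences among the members. The ratios of probe set 1419123_a_at were 0.432, 0.595, 1.41, 1.64 and 1.00 in P6 replicates 1 to 5. In P30 replicates 1 to 4 it lay at the floor of 0.01 and in P30 replicate 5 at 0.0135. Every P6 cell thus lay above every P30 cell, and the spread within P6 was small beside the gap. The mean log2 ratio was -0.15 ± 0.82 at P6 and -6.56 ± 0.19 at P30 (n = 5 cells per age, ± SD), a ratio at least 84.9-fold higher at P6. The other probe set, 1449351_s_at, had ratios of 0.276, 0.405, 1.47, 1.00 and 1.04 at P6 and of 0.01, 0.0223, 0.0130, 0.0142 and 0.0257 at P30. Here too the ages did not overlap, the P6 ratio was higher by at least 43.9-fold, and P6 replicates 1 and 2 were the lowest P6 cells on both probe sets. Ordered from the highest at P6, the probe sets stood at ranks 10 and 47 of 33964. Their log2 ratios over the 10 cells had a Pearson r of 0.99, and these points share the gap between the ages. With a floor of 0.1 in place of 0.01, the differences came to 3.17 and 2.81 on the log2 scale, both still over 3-fold.

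Pdgfd, the other latent PDGF and a ligand of Pdgfrb, was higher at P30 on 2 of its 3 probe sets. Probe set 1456532_at had ratios of 18.2, 12.7, 0.189, 0.445 and 1.00 in P6 replicates 1 to 5 and of 69.9, 124, 54.2, 2.32 and 40.2 in P30 replicates 1 to 5. P30 replicate 4 lay below the 2 highest P6 cells, so the ages overlapped in that 1 cell. The mean log2 ratio was 0.86 ± 2.93 at P6 and 5.08 ± 2.24 at P30, and the ratio was 18.7-fold higher at P30. Leaving out single cells moved the log2 difference of -4.22 to between -5.19 (without P30 replicate 4, when all P30 cells lay above all P6 cells) and -3.41 (without P6 replicate 3), with -5.05 and -4.92 without P6 replicates 1 and 2. The second, 1426319_at, followed another pattern, with ratios of 1.49, 0.858, 1.00, 0.209 and 0.311 at P6 and of 0.780, 1.85, 110, 1.44 and 95.1 at P30. Its 12.1-fold higher level at P30 rested on P30 replicates 3 and 5, while the other P30 cells lay between 0.780 and 1.85. A difference of medians gave -1.11 on the log2 scale in place of -3.60, under 3-fold. Without P30 replicate 3 or 5 the difference was -2.62 or -2.68, and without P30 replicate 1 or 4 it was -4.41 or -4.19. P30 replicate 5, the cell high in endothelial and Purkinje neuron markers, was thus 1 of the 2 high cells. P30 replicate 3 was as high, with none of the 14 endothelial and none of the 6 Purkinje neuron genes over 3-fold above the other P30 cells, and the part of those markers was not tested. The third probe set, 1446691_at, had a difference of 0.88 toward P6 (2.03, past 3-fold, by medians), and its ratios ranged from 0.237 to 1.25 at P6 and from 0.211 to 1.47 at P30. The probe sets of Pdgfd do not give 1 answer: the Pearson r over the 10 cells was 0.55 between the first 2 and 0.05 and -0.03 with the third.

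Pdgfa, the ligand of Pdgfra that acts on oligodendrocyte precursors, was higher at P30 on 1 of 2 probe sets. The ratios of 1418711_at were 1.14, 5.46, 0.817, 0.686 and 1.00 at P6 and 29.8, 14.8, 1.44, 22.4 and 20.5 at P30. In 4 of 5 P30 cells it lay above all P6 cells, and P30 replicate 3 lay among them. The mean log2 ratio was 0.36 ± 1.20 at P6 and 3.63 ± 1.77 at P30, and the ratio was 9.66-fold higher at P30. Without P30 replicate 3 it was 16.5-fold, and then, or without P6 replicate 2, all P30 cells lay above all P6 cells. Probe set 1449187_at did not share this difference. Its ratios were 0.851, 1.20, 0.0737, 1.15 and 0.570 at P6 and 0.848, 0.430, 0.0424, 1.43 and 0.360 at P30, lowest in replicate 3 of each age, with a difference of 0.53 (-0.26 without P30 replicate 3). The mean over both probe sets was -1.37, under 3-fold, and passed 3-fold without P6 replicate 2 or P30 replicate 3.

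Pdgfb, the ligand by which endothelium attracts pericytes, had no probe set past 3-fold. Probe set 1450413_at ranged from 0.737 to 2.59 at P6 and from 0.380 to 2.32 at P30, a difference of 0.48 that turned to -0.19 by medians. Probe set 1450414_at had ratios of 0.817, 1.00, 0.492, 0.656 and 1.21 at P6 and of 0.378, 0.572, 0.493, 0.633 and 0.335 at P30. It was lower in most P30 cells and had the smallest SD within ages of the 19 probe sets (0.45), with a difference of 0.77 that is under 3-fold. Both mean differences were in the direction of P6.

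The sequences before the start sites of the 3 PDGF genes with a probe set past 3-fold are shown because these probe sets differed in opposite directions. They are RefSeq windows (GRCm38.p6) of the 250 bases before an annotated start, printed 5′ to 3′ on the strand of the gene. Pdgfc is chr3:81036166-81036415 on the plus strand, Pdgfd is chr9:6168236-6168485 on the plus strand, and the window shown of the 2 for Pdgfa is chr5:138994945-138995194 on the minus strand. Capitals mark matches on either strand to 4 motifs. These are GGGCGG, the GC box bound by Sp factors, then TATAAA, found before the start of some tightly regulated genes, then ACGTG, which lies at the core of hypoxia response elements, and last CCAAT, bound by nuclear factor Y.
Pdgfc: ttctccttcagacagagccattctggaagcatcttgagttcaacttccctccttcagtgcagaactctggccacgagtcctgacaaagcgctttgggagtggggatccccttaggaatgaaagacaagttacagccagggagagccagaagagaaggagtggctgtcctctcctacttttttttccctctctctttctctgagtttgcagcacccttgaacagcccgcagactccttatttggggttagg
Pdgfd: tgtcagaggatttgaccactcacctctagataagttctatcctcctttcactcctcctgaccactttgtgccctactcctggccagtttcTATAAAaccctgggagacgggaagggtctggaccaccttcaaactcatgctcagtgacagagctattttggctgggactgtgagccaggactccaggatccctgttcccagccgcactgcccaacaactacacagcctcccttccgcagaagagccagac
Pdgfa: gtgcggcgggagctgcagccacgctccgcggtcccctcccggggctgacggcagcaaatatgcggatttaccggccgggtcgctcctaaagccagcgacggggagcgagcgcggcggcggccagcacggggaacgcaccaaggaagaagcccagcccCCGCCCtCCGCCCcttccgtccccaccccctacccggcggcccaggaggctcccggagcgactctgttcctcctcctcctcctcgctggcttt
The Pdgfa window held 28 CG dinucleotides and 2 GC boxes, both on the other strand, while those of Pdgfc and Pdgfd held 3 each, beside a median of 6 over all 32851 windows. Pdgfd held 1 TATAAA, and Pdgfc held no match to the 4 motifs. Of all windows, 32.7% held the GC box, 12.4% held TATAAA, 16.6% held the hypoxia core and 33.8% held CCAAT. Windows were at hand for 6 of the 9 genes, the others being Pdgfb, Angpt1 and Angptl4. Of the 8 windows in all, ACGTG was found in 1 of the 2 of Vegfa, chr17:46025164-46025413 on the minus strand. The other Vegfa window, chr17:46032378-46032627, lies upstream of it on that strand and held no ACGTG. The match thus lies downstream of the start that this other window precedes, and none lay in the 250 bases before that start. A match is a match of letters and not a site shown to be bound.

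Vegfa, the principal growth factor of endothelium, had no probe set past 3-fold. Probe set 1420909_at had ratios of 0.358, 0.289, 0.290, 1.00 and 0.342 at P6 and of 0.730, 0.369, 0.489, 0.639 and 0.373 at P30. P6 replicate 4 was the highest cell of all, and the other 4 P6 cells lay below every P30 cell, so that without that cell all P30 cells lay above, at a difference of -0.65 in place of -0.32. Probe set 1451959_a_at pointed the other way, with a difference of 0.39 and ranges of 0.761 to 1.63 at P6 and 0.353 to 1.70 at P30. The mean over both was 0.03 (-0.22 to 0.12 with single cells left out), and their Pearson r over the 10 cells was 0.22.

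Vegfb, a ligand of Flt1 with a role in metabolic tissues, had 1 probe set, 1451803_a_at. Its ratios were 0.926, 5.87, 0.866, 1.10 and 1.00 at P6 and 1.37, 1.03, 1.18, 1.64 and 0.611 at P30. P6 replicate 2 was the highest cell, and the difference of 0.32 turned to -0.20 without it and to -0.24 by medians.

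Vegfc, the ligand of Flt4, had mean ratios toward P30 on 2 of 3 probe sets, short of 3-fold. Probe set 1419417_at had ratios of 4.70, 0.401, 1.00, 0.479 and 1.47 at P6 and of 2.27, 1.72, 4.50, 6.36 and 0.839 at P30, a 2.34-fold difference. Probe set 1440739_at had ratios of 4.33, 0.187, 1.00, 0.258 and 1.05 at P6 and of 2.14, 1.58, 3.94, 5.58 and 0.411 at P30, a 2.68-fold difference. The order of the 10 cells was the same on both (Spearman rho 1.00, Pearson r 0.99), with P6 replicate 1 and P30 replicates 3 and 4 the highest, so that Vegfc varied from cell to cell within each age as well as between ages. Both probe sets passed 3-fold at P30 without P6 replicate 1 (3.40-fold and 4.18-fold) or without P30 replicate 5 (3.07-fold and 3.98-fold). Either made 5 in place of 3 member probe sets over 3-fold higher at P30, beside 7.54% and 7.67% of all probe sets. The third, 1439766_x_at, which by its suffix holds probes that may bind other transcripts, had a difference of 0.39 and correlated with them at 0.30 and 0.33.

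Angpt1, the activating ligand of Tek, was higher at P6 on both probe sets by the mean, and 1 of them passed 3-fold. The ratios of 1439066_at were 0.292, 0.253, 0.774, 1.23 and 0.0859 at P6 and 0.130, 0.130, 0.0702, 0.178 and 0.0698 at P30. It lay above all P30 cells in 4 of 5 P6 cells, and P6 replicate 5 lay among the P30 cells. The mean log2 ratio was -1.48 ± 1.50 at P6 and -3.21 ± 0.60 at P30, and the ratio was 3.33-fold higher at P6. This was close to the size rule: it was 2.75-fold without P6 replicate 3, 2.45-fold without P6 replicate 4, 2.99-fold without P30 replicate 3 and 2.98-fold without P30 replicate 5, while without P6 replicate 5 it was 4.76-fold and the ages did not overlap. The difference of 1.73 on the log2 scale was also under 3-fold by medians (1.17), with a floor of 0.1 (1.57) and with median scaling of the arrays (1.58). On probe set 1421441_at the ratios were 0.317, 1.00, 1.63, 1.67 and 0.739 at P6 and 0.239, 0.938, 0.585, 1.91 and 0.156 at P30. Its difference was 0.81, beside an SD within ages of 1.25. The mean over both probe sets was 1.27, under 3-fold, and came to 1.59 (3.01-fold) without P30 replicate 4.

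Angptl4, the inhibitor of lipoprotein lipase, was over 3-fold higher at P6 on 1 of its 2 probe sets. The other was 1.33-fold higher at P30, under 3-fold and overlapping. The ratios of 1417130_s_at were 3.29, 0.651, 0.881, 1.00 and 1.74 at P6 and 0.0163, 0.01, 0.185, 0.139 and 0.0136 at P30. All P6 cells lay above all P30 cells, and 3 P30 cells lay at or near the floor while P30 replicates 3 and 4 lay clearly above it. The mean log2 ratio was 0.34 ± 0.92 at P6 and -4.81 ± 2.00 at P30, and the ratio was at least 35.7-fold higher at P6 (rank 79 of 33964). A floor of 0.1 left a difference of 3.39 in place of 5.16, and leaving out P30 replicate 3 gave 5.75. On 1453410_at the ratios were 1.66, 0.677, 1.18, 1.00 and 0.873 at P6 and 1.52, 1.77, 1.84, 1.46 and 0.659 at P30. The P30 cells other than replicate 5 were among the highest, with a difference of -0.41. The gene value over both was 2.37 (-0.41 without the first). The suffix of the first marks a probe set whose probes match more than 1 transcript, and so does that of 1449351_s_at of Pdgfc. Without probe sets ending in _s_at or _x_at, 2 in place of 4 probe sets were over 3-fold higher at P6, beside 11.8% of all probe sets kept.

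**Figure D2:**
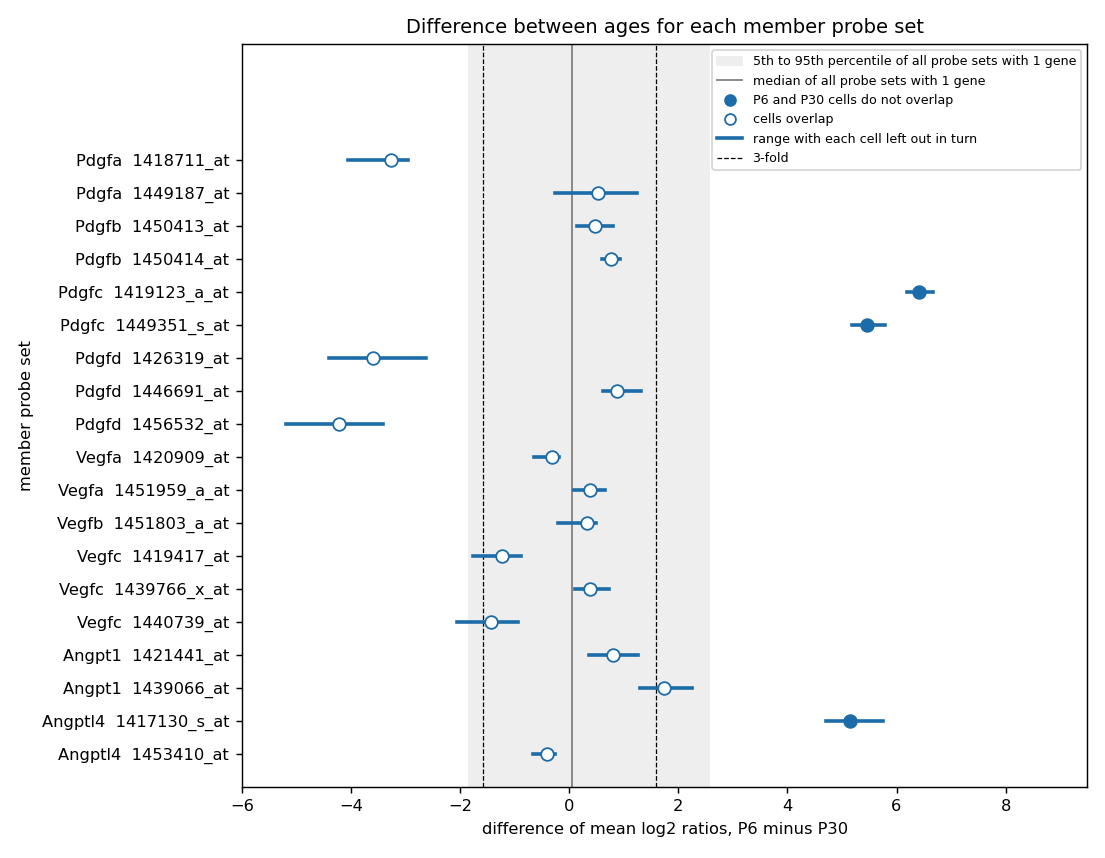
Mean log2 ratio at P6 less that at P30 (horizontal axis) for each of the 19 probe sets (points), with the lowest and highest value when each cell was left out in turn (bars), the 5th to 95th percentile of all probe sets with 1 gene (shaded) and 3-fold (dashed lines). Filled points mark the 3 probe sets whose P6 and P30 cells do not overlap, at 6.41, 5.45 and 5.16.

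Outside the 9 genes, the probe sets whose log2 ratios over the 10 cells were most like those of the members were found by Pearson r among 33945 probe sets. The cells share the gap between the ages and the array scale, so these values describe these cells alone. For Pdgfc 1419123_a_at they were those of Cd24a (r = 0.99), Rpl13a, Rlbp1, Opcml and Syt1 (0.985), and for Pdgfc 1449351_s_at those of Syt1 (0.98), Nes, Mcm5, Klhl25 and Cd24a (0.97). Nes encodes nestin, the intermediate filament of radial and immature glia, Mcm5 a subunit of the DNA replication helicase and Cd24a a surface glycoprotein of immature neural cells. Syt1 is on the list of neuronal markers used here. Rpl13a encodes a ribosomal protein, Rlbp1 a retinaldehyde binding protein and Opcml an adhesion molecule. For Pdgfd 1456532_at they were Slc13a3 (0.949), Rspo4, Dgke, Mfap3l and Akr1c6 (0.945), and for Pdgfd 1426319_at they were Ecm1 (0.941), Pgm1, Hivep3, Prickle1 and Plcb1 (0.939). The 2 Pdgfd probe sets shared none of their 5 closest probe sets, and those of Pdgfc shared 2, Syt1 and Cd24a.

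Several receptors of these ligands were high in single cells of either age. Of 8 PDGF and VEGF receptor genes, none was past 3-fold toward P6 and 1 toward P30, with a median difference of -0.42 beside 0.05 over all genes. Pdgfrb, the receptor of PDGF-B and PDGF-D and a marker of pericytes, was the 1 gene, 3.98-fold higher at P30. Its log2 ratio was 5.77 for P6 replicate 1, then 6.21 and 6.24 for P30 replicates 2 and 5, and -1.98 to 1.77 in the other 7 cells, so that it was high in 3 cells of both ages. It was under 3-fold without P6 replicate 4 (-1.34), P30 replicate 2 (-1.09) or P30 replicate 5 (-1.09), and came to -3.28 without P6 replicate 1, -2.88 without P30 replicate 1 and -2.70 without P30 replicate 3. Pdgfra, the receptor of PDGF-A and PDGF-C, had a difference of 0.53, and Pdgfrl, a related soluble protein, of 0.22. Pdgfrl had log2 ratios of 4.65 in P6 replicate 3 and -2.73 in P6 replicate 1, and its difference turned to -0.86 without P6 replicate 3. Kdr, the main VEGF receptor of endothelium, was high in 1 cell of each age, replicate 5 of each, with log2 ratios of 5.94 at P6 and 5.28 at P30. Its difference of -0.76 came to -1.96 without the first and to 0.08 without the second. Flt1 had a difference of -0.35, Flt4 of -1.01, Nrp1 of -0.31 and Nrp2 of -0.50, where Nrp1 and Nrp2 are co-receptors of the VEGFs. Probe set 1419300_at of Flt1 had a ratio of 19.3 in P30 replicate 5 and 0.358 to 0.723 in the other P30 cells. For Flt4, 1444052_at was 3.48-fold and 1421442_at 1.16-fold higher at P30, both overlapping.

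Of 5 angiopoietin receptors and co-receptors, 1 was over 3-fold higher at each age. Tek, the receptor of angiopoietin 1, was 4.54-fold higher at P30, with a log2 ratio of 5.48 in P30 replicate 5 and -2.13 to 0.61 in the other 9 cells, and without P30 replicate 5 the difference was -1.07. Tie1, its partner, was 3.77-fold higher at P6 and was under 3-fold without P6 replicate 5 (1.27), P30 replicate 3 (1.51) or P30 replicate 4 (1.53), and at 2.68 without P30 replicate 5. The integrin genes Itgav, Itgb1 and Itgb3 had differences of -0.30, -0.53 and -1.22. The high values of Tek and Kdr at P30 were thus in the cell whose other endothelial markers, and Purkinje neuron markers, stood highest. The high values of Kdr and Tie1 at P6 were in P6 replicate 5, where 1 of the 10 other endothelial markers was over 3-fold above the other P6 cells. Without P30 replicate 5 none of the 14 endothelial markers was past 3-fold toward P30, against 3 with it. The part of this signal in the members' values was not tested.

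**Figure D3:**
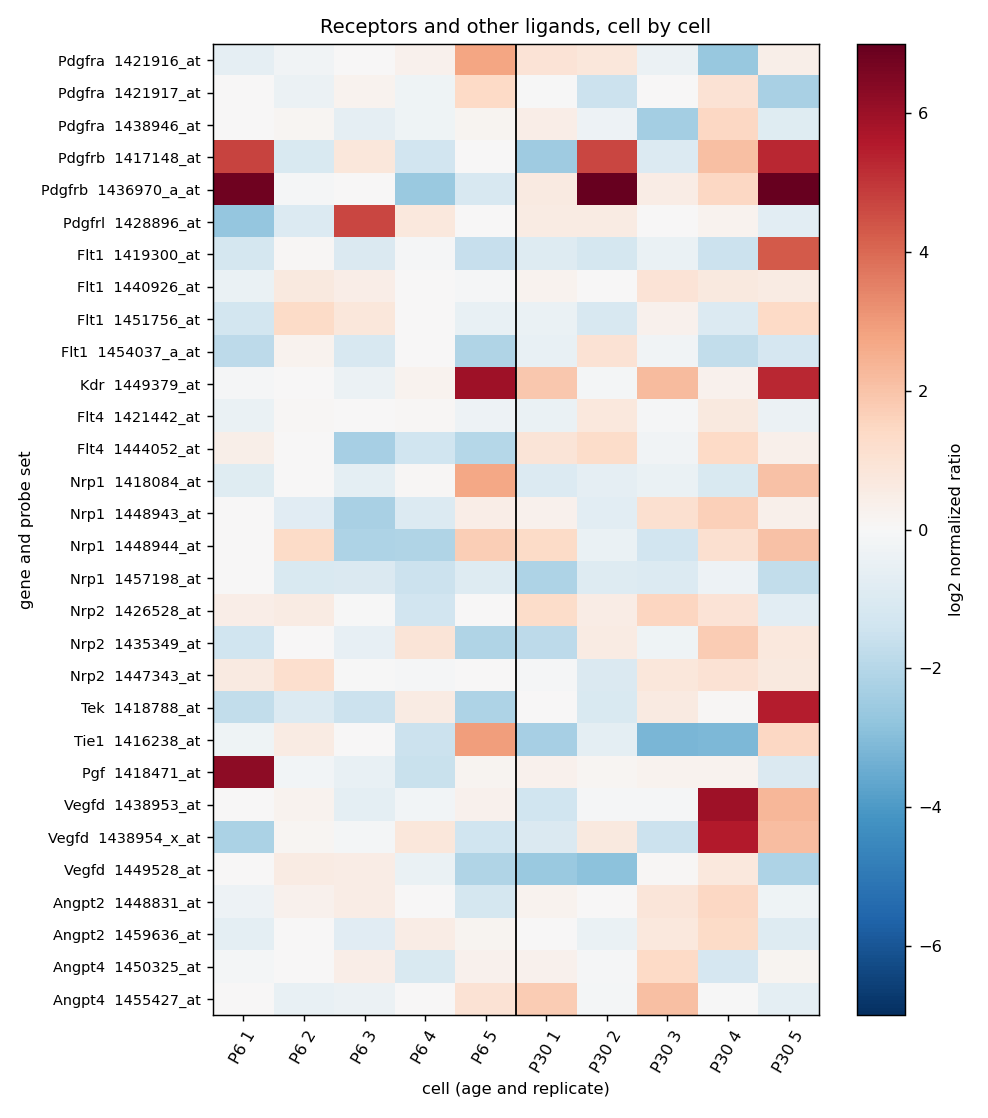
Log2 normalized ratio (color) of each probe set of the PDGF, VEGF and angiopoietin receptors and of the other VEGF and angiopoietin ligands, with 1 column per cell and P6 left of the black line. The deepest reds are single cells: Pdgfrb in P6 replicate 1 and P30 replicates 2 and 5, Kdr in replicate 5 of each age, Tek in P30 replicate 5, Pgf in P6 replicate 1 and Vegfd in P30 replicate 4.

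None of the 4 other VEGF and angiopoietin ligands passed 3-fold by the mean over its probe sets. Vegfd had 1438954_x_at 3.38-fold and 1438953_at 2.64-fold higher at P30, with the highest ratios in P30 replicate 4 (46.6 and 60.1). Its probe set 1449528_at was 2.09-fold higher at P6. Pgf, placental growth factor and a ligand of Flt1, had a log2 ratio of 6.29 in P6 replicate 1, the P6 cell that was also high for Pdgfrb, and -1.58 to 0.30 in the other 9 cells. Its difference was 0.84, and -0.52 without that cell. Of 4 other angiopoietin-like genes with a value, Angptl6 was over 3-fold higher at P6, with a difference of 2.12 that was 1.42 without P30 replicate 2, 1.43 without P30 replicate 3 and 1.58, just under 3-fold, without P6 replicate 2. It came to 2.76, 2.84 and 2.93 without P6 replicate 3, P6 replicate 4 or P30 replicate 5.

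Among 14 genes for proteases that activate or cut these ligands, or for the cofactor Ccbe1, 1 was over 3-fold higher at each age. The median was 0.21. Adamts1, a secreted protease that binds VEGF, was 6.84-fold higher at P6, through log2 ratios of 4.05 in P6 replicate 1 and 5.15 in P6 replicate 5, and the difference of 2.77 was 2.15 without the first and 1.87 without the second. Mmp2, a gelatinase, was 4.24-fold higher at P30, as the mean of 1 probe set at 9.61-fold and 1 at 1.87-fold, and P6 replicate 2, at 0.06, was the P6 cell among the P30 cells.

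The genes that sense low oxygen, which induces Vegfa and Angptl4 in many tissues, had a median difference of -0.09 over 10 genes. Of these, 1 was past 3-fold by the mean over its probe sets. Epas1, which encodes the oxygen-regulated factor HIF-2 alpha, was 11.5-fold higher at P30 as the mean of 2 probe sets that disagreed. On 1435436_at the ratios were 0.415 to 1.35 at P6 and 289, 127, 228, 2.81 and 135 in P30 replicates 1 to 5, 101-fold higher at P30 and without overlap. On 1449888_at they were 0.494 to 1.24 at P6 and 0.292 to 2.28 at P30, overlapping, with a difference of -0.39. Without P30 replicate 4, the lowest on the first, the mean difference was -4.13 in place of -3.53. Single probe sets of other oxygen-sensing genes passed 3-fold toward P30. These were Hif3a 1446708_at (13.8-fold, all P30 cells above) and 1425428_at (5.0-fold, overlapping), and Arnt2 1434028_at (at least 7.21-fold, overlapping). The Arnt2 ratio was at the floor in P6 replicate 1, 0.485 to 1.96 in the other P6 cells and 1.18 to 5.35 at P30. Hif1an 1428576_at (5.02-fold) and 1452845_at (4.06-fold) also did, through single cells. The first had ratios of 44.0 and 37.1 in P30 replicates 1 and 2, but medians of 0.414 at P6 and 0.42 at P30. The second had 64.3 in P30 replicate 1 and 0.245 to 1.07 in the other P30 cells. Toward P6, Egln3 1418648_at passed it (4.34-fold, overlapping). The other probe sets of Hif3a, Arnt2, Hif1an and Egln3 stayed under 3-fold. Over all probe sets, 6.91% passed 3-fold toward P30 and 12.3% toward P6. Of 18 genes induced by low oxygen, 1 was past 3-fold toward P6 and 3 toward P30, with a median of -0.11. The glucose transporter Slc2a1 was 8.57-fold, the mitochondrial protein Bnip3 7.10-fold and hexokinase Hk2 7.07-fold higher at P30, and the pyruvate dehydrogenase kinase Pdk1 was 4.96-fold higher at P6, with 2 of its 4 probe sets past 3-fold. Slc2a1 came to -3.73 without P6 replicate 3 and to -2.57 without P6 replicate 1. Hk2 came to -3.62 without P6 replicate 1 and to -2.32 without P6 replicate 5. In Slc2a1, Bnip3, Hk2 and Pdk1 the cells of the ages overlapped. Bnip3 varied most, from -2.06 without P30 replicate 4 to -4.25 without P30 replicate 2, with -3.42 and -2.24 without P6 replicates 1 and 2 and -2.16 without P30 replicate 1. Beside these, the Vegfa probe sets had differences of -0.32 and 0.39 and those of Angptl4 of 5.16 and -0.41.

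PPAR nuclear receptors also induce Angptl4. Of 13 other genes they induce, 1 was past 3-fold, toward P6, while 7 had the higher mean at P6 and 6 at P30. The median was 0.72, and it was 0.1 without P30 replicate 4. Acadvl, an enzyme of mitochondrial fatty acid oxidation, was 4.08-fold higher at P6, and its difference of 2.03 was 1.15 without P30 replicate 4 and 2.69 without P30 replicate 2. Of 7 genes of lipoprotein lipase and its partners none passed 3-fold, while all 7 had the higher mean at P30 (median -0.68). The largest difference there was that of Apoc2, the activator of the lipase, at -1.03.

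**Figure D4:**
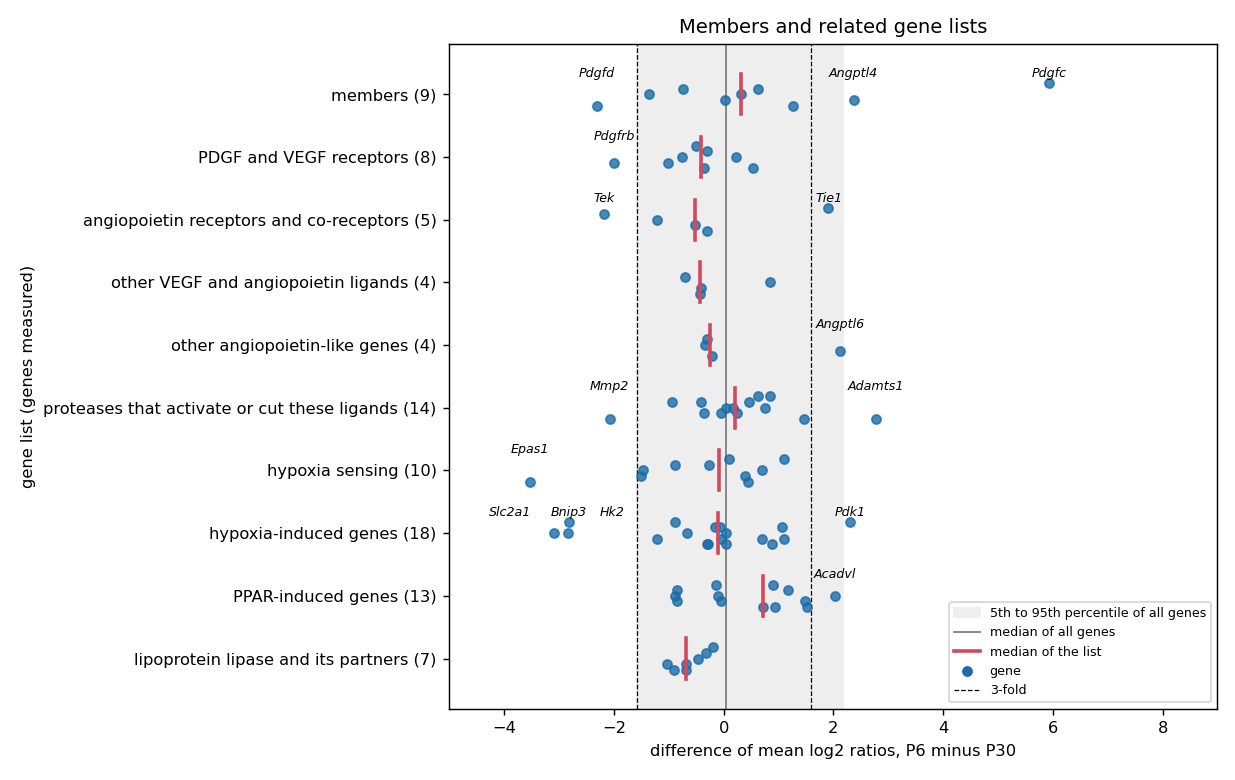
Mean log2 ratio at P6 less that at P30 (horizontal axis) of each gene (points) in the 9 genes described here and in lists of related genes, with the median of each list (red), the median and the 5th to 95th percentile of all genes (grey) and 3-fold (dashed lines). Pdgfc, at 5.93, lies farthest from the median of all genes, and the medians of the lists lie between -0.68 and 0.72.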

How the data were processed

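Single Bergmann glial cells were lysed, and their cDNA was amplified by PCR, labelled with biotin and hybridized to Affymetrix Mouse Genome 430 2.0 arrays, 1 array per cell. The deposited values are ratios made by the authors: RMA signals from GeneSpring GX 7.3 were set to at least 0.01, divided by the median of the array and then by a median of the probe set. The genome build was not given in the sources used here. In 69.8% of complete probe sets the median of the P6 cells was within 0.005 of 1, so that the divisor was mostly that of the P6 cells, and P6 ratios lie near 1 by construction. Of the 19 member probe sets, 17 had a P6 cell at exactly 1.

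Of 45101 probe sets, 43608 were complete, and 1493 blank in all P6 cells were left out, none of them of a member. Probe sets were named through the platform annotation: 34958 had 1 gene, 932 several and 9211 none, and a gene's value is the mean log2 ratio of its complete probe sets. Values were analyzed as log2 with a floor of 0.01 (Python 3.11.15, NumPy 2.4.6, pandas 2.3.3, Matplotlib 3.10.9). No column was unused. The number of arrays limits the precision.

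The mean log2 ratio at P30 was taken from that at P6, 3-fold was the size named, cells of the ages were checked for overlap, and the calculation was tested on simulated data. The members and lists were chosen with earlier results of these data known. Named were all members and receptor genes, up to 4 genes over 3-fold of each related list (or the 1 largest) and the 5 probe sets most like each of the 2 member probe sets with the largest difference in each direction. Ccbe1 was named besides, as were genes with single probe sets over 3-fold among the oxygen sensors and the other ligands. Alternatives were other scalings (array median, hybridization spikes), a floor of 0.1, medians, arithmetic means, a 2-fold rule, 1 probe set per gene, no probe sets ending in _s_at or _x_at, and leaving out each cell.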

Additional observations from a re-analysis of the deposited data

Results flagged for a closer look

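Each of the 38 groups of 5 cells (19 probe sets at 2 ages) was examined for a single cell far from the other 4, by the share of the group's whole log2 range that lies between that cell and its nearest neighbor. In 9 of 38 groups the share was past the limit that chance passes in about 1 in 20 groups. For Pdgfa 1418711_at this was P6 replicate 2 at a ratio of 5.46 above the others at 0.686 to 1.14 (share 0.757), and P30 replicate 3 at 1.44 below the others at 14.8 to 29.8 (share 0.77). For Pdgfa 1449187_at it was P6 replicate 3 at 0.0737 below 0.570 to 1.20 (share 0.733). For Pdgfc 1419123_a_at it was P30 replicate 5 at 0.0135, while the other 4 cells were at the floor of 0.01, which makes the share 1.0 whatever the size of the gap. For Pdgfd it was P6 replicate 5 of 1446691_at at 0.237 below 0.992 to 1.25 (share 0.859) and P30 replicate 4 of 1456532_at at 2.32 below 40.2 to 124 (share 0.717). For Vegfa 1420909_at it was P6 replicate 4 at 1.00 above 0.289 to 0.358 (share 0.828), for Vegfb 1451803_a_at P6 replicate 2 at 5.87 above 0.866 to 1.10 (share 0.875), and for Angptl4 1453410_at P30 replicate 5 at 0.659 below 1.46 to 1.84 (share 0.772).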

How the results depend on the processing

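No paired analysis was possible because the replicate numbers name separate cells and the results come from no test. Scaling by the array median moved the median difference of all probe sets by -0.16 and scaling to the hybridization spikes by 0.29; of all probe sets over 3-fold, 64% were higher at P6, 56.1% with the first and 77.5% with the second. The members' counts were then 3 and 4 higher at P6, Angpt1 1439066_at falling under 3-fold with the first, and 3 higher at P30 with each. Of all probe sets, 10.7% and 16.4% were then past 3-fold toward P6, and 8.35% and 4.77% toward P30. Without probe sets ending in _x_at or _s_at, 2 were over 3-fold higher at P6, 1 lay above in all P6 cells, and the Angptl4 value turned to -0.41. The members lost 1417130_s_at, 1439766_x_at and 1449351_s_at by this, and 11.8% of all probe sets kept were over 3-fold higher at P6. With 2-fold, 5 were higher at P30, beside 14.7% of all probe sets. Leaving out single cells gave 3 to 4 higher at P6, 3 to 5 at P30 (5 without P6 replicate 1 or P30 replicate 5), medians of 0.21 to 0.57, 3 to 4 with all P6 cells above and 0 to 1 with all P30 cells above (1 without P6 replicate 2 or 4 or P30 replicate 3 or 4). Leaving out P6 replicate 5 and P30 replicate 5 together, a choice made after seeing the data, gave 5 at P30. Of all probe sets, 8.22% were then over 3-fold higher at P30. With the probe set of largest difference per gene, Pdgfa came to -3.27, Pdgfd to -4.22 and Angptl4 to 5.16. Of 482 values of single probe sets and genes under these alternatives, 474 moved by less than their spread between cells. This total does not measure stability, since leaving out 1 of 5 cells cannot move a mean by as much as that spread. A smaller move can also cross 3-fold. With a floor of 0.1, 4 values moved by more, and with the probe set of largest difference 3 did. Without probe sets ending in _x_at or _s_at, 1 reversed. Causes were not tested. Signal over background was not at hand, and differences at the floor are bounds.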
